A study of Mus musculus with 5 samples.

Results

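The response of wild-type B16F1 cells to TGF-β1 was read from 2 of the 5 arrays of the series: the array of cells given TGF-β1 and the array of cells given vehicle, both chosen by their titles. B16F1 is a cell line from a mouse melanoma. The TGF-β1 culture received 10 ng/ml of the cytokine for 2 days, and the vehicle culture received none. No time is given here for the vehicle culture. The other 3 arrays all carry TGF-β1: wild-type cells that also received 10 µM of CCG1423, an inhibitor of the MRTF pathway, and 2 clones of Tmsb4x knockout cells. The series title speaks of a knockout and its design text of a knockdown. All cultures grew in Dulbecco's modified Eagle medium with 10% foetal bovine serum, which can itself carry growth factors, and each array held the RNA of 1 culture labelled with Cy3. With 1 array per group, a difference between TGF-β1 and vehicle had no replicate check and no test, and no p-value is given. In RNA of a whole culture, more RNA per cell and more cells of a kind cannot be told apart.

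TGF-β1 is a secreted cytokine that is released from a latent complex in the matrix and binds a pair of serine/threonine kinase receptors, TGFBR2 and TGFBR1. The receptors phosphorylate SMAD2 and SMAD3, which enter the nucleus with SMAD4 and switch on matrix genes, protease inhibitors and the pathway's own inhibitors. In melanocytes and melanoma cells the cytokine is known for restraining pigment synthesis and for favouring an invasive, matrix-producing state.

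A level here is the log2 processed signal of a gene's probe relative to the 75th percentile of its array, and a difference is the TGF-β1 level minus the vehicle level. Levels of different genes come from different probes and are not compared with each other. Of 22907 named genes, 14145 were well above background on at least 1 of the 2 arrays by the probe that stood for the gene, and were kept, 12893 of them on both. Signals were well above background for 53.8% of probes with TGF-β1 and 52.2% with vehicle, the 75th percentiles were 294 and 299, and 0 spots were saturated. The 286 replicated probes, with 10 spots each, gave a median SD of 0.06 for a log2 difference taken from 1 spot per array (95th percentile 0.12). The scanner software's own error for the difference of a gene had a median of 0.20. Both describe the arrays and not the spread between cultures. List members with a difference under 2-fold, and members beyond the 3 furthest of a list, were named after their values were seen. The cells carried their line's identity on both arrays: all 9 melanocyte markers were kept, with the pigment enzyme Dct at 9.78 with TGF-β1 and 9.89 with vehicle, the melanosome protein Pmel at 8.27 and 8.46, and the lineage factor Mitf at 6.59 and 6.59.

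At 2-fold or more, 700 genes (4.95% of those kept) were higher with TGF-β1 and 462 (3.27%) were lower, or 8.21% in all. Counts of list members further on stand beside these shares, which a short list can reach with 1 member. Among genes well above background on both arrays, 413 (3.2%) were higher and 209 (1.62%) lower. The remaining 287 and 253 are bounds, in which 1 of the arrays gave no signal well above background. The bulk of the genes lay close together: the median difference was -0.05, the quartiles were -0.20 and 0.12, and 88.4% of genes measured on both arrays lay within 1.5-fold. At 4-fold or more on both arrays 119 genes were higher and 41 lower, and at 8-fold or more 30 were higher and 9 lower. When the genes measured on both arrays were put into 4 equal groups by level, 9.0% of the dimmest group differed 2-fold, then 5.0%, 3.01% and, in the brightest group, 2.30%. In the brightest group 58 genes were higher and 16 lower, and in the dimmest 160 were higher and 130 lower. The same count between the 2 knockout clones, which shared a treatment, was 7.57% of genes.

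**Figure D1:**
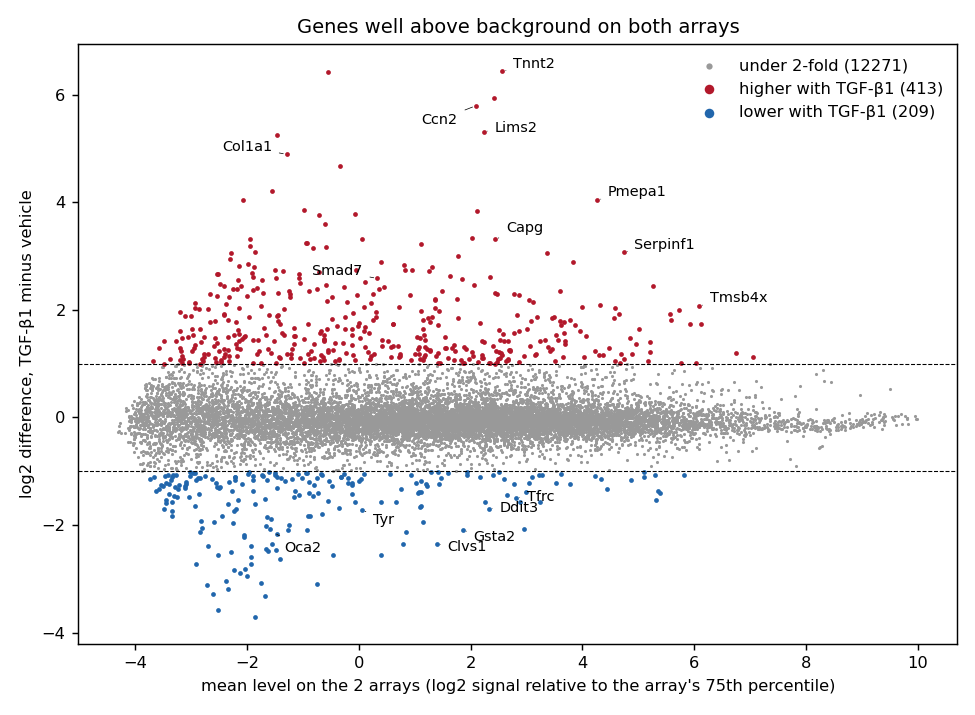
Each point is a gene well above background on both arrays; the horizontal axis is its mean level on the 2 arrays and the vertical axis its log2 difference, TGF-β1 minus vehicle, with dashed lines at 2-fold. The 413 higher genes reach further from 0 than the 209 lower ones, and Tnnt2, Ccn2 and Lims2 are among the 6 that stand above 5.

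Tnnt2, which encodes the cardiac form of troponin T in striated muscle thin filaments, had a level of 5.78 with TGF-β1, against -0.65 with vehicle. Ccn2, a matricellular growth factor, stood at 4.99 with TGF-β1 and -0.80 with vehicle, and Lims2, an adaptor between integrins and actin, at 4.89 and -0.43. All of these signals were well above background on both arrays, and each of the differences was over 5 on the log2 scale, where the scanner software gave it an error of 0.21 for Tnnt2, Ccn2 and Lims2. The other 3 arrays, all with TGF-β1, gave levels for Tnnt2 of 4.89 with CCG1423, 6.38 in clone 1 and 5.40 in clone 2. For Ccn2 they gave 3.85, 4.26 and 4.49 in the same order. Cda, cytidine deaminase, a pyrimidine salvage enzyme picked after its values were seen, was 85.9-fold higher, with levels of 2.67 with TGF-β1 and -3.76 with vehicle. Scx, the tendon transcription factor scleraxis, picked in the same way, was 25.4-fold higher (2.00 against -2.67).

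Further down the higher side came genes of unlike function. Slc22a23, an organic ion transporter family member, was 10.1-fold higher (3.69 with TGF-β1, 0.35 with vehicle). Capg, which caps actin filaments, was 9.93-fold higher (4.09 and 0.78), and Megf10, an engulfment receptor, 9.40-fold (2.73 and -0.50, with its other probe at 1.64 on the log2 scale). Endod1, an endonuclease-domain protein, was 8.37-fold higher, with its 2 probes at 3.07 and 3.18. Prkg2, a cGMP-dependent protein kinase, was 7.99-fold higher, and Ak1, an adenylate kinase, 7.44-fold. Dhrs3, a retinaldehyde reductase, was 6.95-fold higher, and Fancc, of the Fanconi anaemia DNA repair complex, 6.60-fold. For Rab15, an endosomal GTPase, the probe used was 14.2-fold higher (4.03 and 0.20), but its other measured probe differed by 0.13.

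The genes furthest down on both arrays, among those brighter than the median gene, included Clvs1, a lipid-binding protein of clathrin-coated vesicles, with levels of 0.21 with TGF-β1 and 2.57 with vehicle (5.12-fold lower). Gsta2, a glutathione transferase, stood at 0.81 with TGF-β1 and 2.91 with vehicle (4.28-fold lower). Gm10639, a predicted gene, was 4.22-fold lower (1.91 and 3.99). Ahr, the ligand-activated receptor for aryl hydrocarbons, was 3.84-fold lower (0.18 and 2.13), and Rapgef3, a cAMP-activated exchange factor for RAP GTPases, 3.12-fold. The vesicle protein Syt4 was 2.97-fold lower, Mgll, which hydrolyses monoacylglycerols, 2.96-fold, Mapk8ip1, a JNK scaffold, 2.89-fold, and Deptor, an inhibitor of mTOR, 2.60-fold. Tfrc, the transferrin receptor, was 2.81-fold lower and its 2 probes gave -1.49 and -1.50.

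The promoters of a gene of each kind are shown, though promoter activity was not measured. They belong to Tnnt2 with the widest difference among genes measured on both arrays, Serpinf1 with 3 probes close together, and Tyr, the pigment enzyme lower with TGF-β1. They are the 250 bases before the gene start in RefSeq's annotation of GRCm38.p6, read along the gene's strand.
Tnnt2, chr1:135836084-135836333, plus strand: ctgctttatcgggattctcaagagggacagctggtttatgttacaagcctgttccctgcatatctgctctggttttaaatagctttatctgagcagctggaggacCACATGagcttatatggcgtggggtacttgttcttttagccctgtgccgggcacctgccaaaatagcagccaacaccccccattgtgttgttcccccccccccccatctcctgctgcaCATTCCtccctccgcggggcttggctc
Serpinf1, chr11:75422624-75422873, minus strand: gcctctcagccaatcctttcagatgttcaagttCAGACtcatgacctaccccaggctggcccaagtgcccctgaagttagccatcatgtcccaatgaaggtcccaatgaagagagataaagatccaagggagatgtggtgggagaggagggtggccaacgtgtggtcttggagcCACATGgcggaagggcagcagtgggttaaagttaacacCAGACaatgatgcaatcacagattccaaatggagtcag
Tyr, chr7:87493513-87493762, minus strand: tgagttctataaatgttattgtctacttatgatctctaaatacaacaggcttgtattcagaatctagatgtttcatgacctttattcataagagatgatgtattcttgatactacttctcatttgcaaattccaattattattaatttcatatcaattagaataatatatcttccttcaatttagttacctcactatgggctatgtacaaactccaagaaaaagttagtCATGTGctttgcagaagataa
Capitals mark 5 motifs, chosen after the values were seen and searched on both strands: CAGAC, bound by SMADs, GGAATG, bound by TEADs, TGANTCA, a loose form of the AP-1 site, CATGTG, the core of the MITF-bound M-box, and the CArG box of SRF. The letters of none of them lie within another. The window printed for Tnnt2 has GGAATG 27 bases before the start and CATGTG at 145 bases before it, Serpinf1 has CAGAC at 217 and 38 bases and CATGTG at 76 bases, and Tyr has CATGTG at 21 bases. Counts over genes used windows of 300 bases that also took in the 50 bases after the start, and 11273 genes kept had such a window. Of the windows of genes higher on both arrays 11.3% held TGANTCA, against 5.72% for genes kept and 7.81% for all genes in the table. CATGTG was in 10.4% of windows of higher genes, 16.7% of windows of lower genes and 9.45% of windows of genes kept. CAGAC was in 55.4%, 51.6% and 47.5% in the same order, GGAATG in 15.4%, 11.5% and 12.5%, and the CArG box in 2.16%, 1.56% and 1.35%. Over all windows these shares were 14.2% for CATGTG, 49.6% for CAGAC, 14.7% for GGAATG and 1.63% for the CArG box. RefSeq gives Tnnt2 another start, whose window held none of the 5 motifs. A match says only that the letters are there.

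Within the TGF-β system itself, most of the ligands and the proteins that keep them latent differed by under 2-fold. Of 10 such genes kept, 0 were higher at 2-fold and 2 were lower: Nrros, a latency protein for TGF-β1, with levels of -0.12 with TGF-β1 and 1.45 with vehicle (2.96-fold lower), and the stress-induced family member Gdf15 (2.17-fold lower). Tgfb3, another ligand, had a difference of 0.99, just under 2-fold, and Tgfb2 of 0.46, while Tgfb1 was not well above background on either array. Among 11 receptors kept, 1 was higher, the BMP receptor Bmpr2 (3.73 with TGF-β1, 2.56 with vehicle, 2.24-fold). The signalling receptors for TGF-β1 were both below 0: Tgfbr2 at 1.87 with TGF-β1 and 2.58 with vehicle, and Tgfbr1 at 0.57 and 0.81. The co-receptor Tgfbr3 differed by -0.65. None of the 14 SMADs and SMAD partners differed 2-fold. Smad3 had the widest difference among them at 0.88, with its other probe at 0.84, while Smad2 differed by -0.03 and Smad4 by -0.06.

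The pathway's inhibitors stood out against this. Of 15 kept, 6 (40.0%) were at least 2-fold higher and 1 lower, with a median difference of 0.71, against 4.95% higher and a median of -0.05 for all genes kept. Pmepa1, a membrane protein that sequesters receptor SMADs, stood at 6.29 with TGF-β1 and 2.24 with vehicle. Smad7, which blocks the type I receptor, stood at 1.62 and -0.96 (6.0-fold higher), and Smad6, its relative in BMP signalling, at 1.28 and -0.85 (4.36-fold). Skil, the SMAD corepressor SnoN, stood at 2.85 and 0.65 (4.57-fold), and its 3 probes gave 2.19, 2.11 and 2.16. The corepressor Tgif1 was 3.08-fold higher and Fstl3, an activin-binding follistatin-like protein, 2.91-fold. Ski, a corepressor related to SnoN, differed by 0.78. The lower member was Nedd4l, a ubiquitin ligase that removes SMADs and receptors (4.77 with TGF-β1, 5.84 with vehicle), with probes at -1.07 and -1.22; it came to under 2-fold on the authors' scaling. On the other arrays, Pmepa1 lay at 5.68 with CCG1423, 5.82 in clone 1 and 6.44 in clone 2, all with TGF-β1.

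Direct targets of TGF-β and SMADs, Ccn2 among them, lay mostly above 0: 15 of 18 genes kept, with a median of 0.73. In all 6 (33.3%) were higher and 0 lower, against 4.95% and 3.27% of all genes kept. Gadd45b, a stress sensor, was 2.79-fold higher, Junb, an AP-1 subunit, 2.66-fold with its other probe at 1.72 on the log2 scale, and Wnt9a was also at 2-fold or more. The oxidase Nox4 was just past it at dim levels (-3.16 with TGF-β1, -4.21 with vehicle), with probes at 1.05 and 0.17. Familiar readouts were not well above background on either array: Tgfbi, a secreted matrix protein, Cdkn2b, a cell cycle inhibitor, and Snai1, an EMT factor. Cdkn1a, another cell cycle inhibitor of this pathway, had levels of 3.94 with TGF-β1 and 4.14 with vehicle. Myc, which TGF-β represses in epithelial cells, was 2.10-fold lower, with probes at -1.07 and -1.04, and came to under 2-fold with normexp correction and on the authors' scaling. The Id genes, BMP targets that inhibit helix-loop-helix factors, split: Id3 differed by 0.84, Id1 by -0.62 and Id2 by -0.57.

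**Figure D2:**
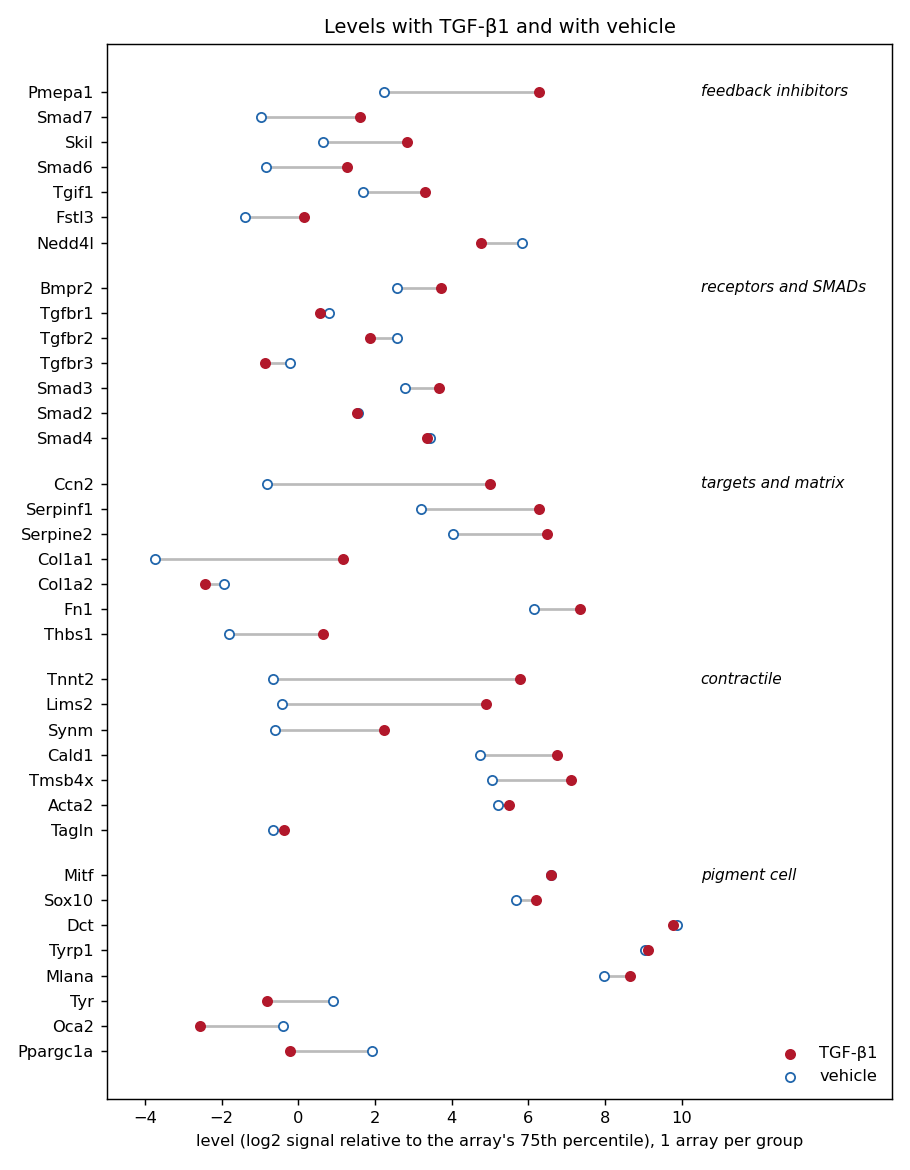
Each row is a gene; the filled point is its level with TGF-β1 and the open point its level with vehicle, 1 array each, in log2 signal relative to the array's 75th percentile. The gap within a row is the difference, and rows are not compared with each other; the widest gaps belong to Tnnt2, Ccn2, Lims2, Col1a1 and Pmepa1.

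Protease inhibitors were among the higher genes. Of 11 genes of the plasminogen system and its serpins kept, 4 were higher and 2 lower. Serpinf1, which encodes the anti-angiogenic factor PEDF, had levels of 6.27 with TGF-β1 and 3.20 with vehicle (8.41-fold higher), and its 3 probes gave 3.07, 3.19 and 3.20. Serpine2, a thrombin and plasminogen activator inhibitor, stood at 6.48 and 4.04. F3, tissue factor, which starts coagulation, had a difference of 1.42. On the proteolytic side Plau, urokinase, was well above background on the vehicle array alone of all 5 (at least 20.6-fold lower), Plat, the tissue activator, differed by 0.21 and Plaur, the urokinase receptor, by -0.70.

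Collagen genes were the list with the largest share of higher members. Of 9 fibrillar collagen genes kept, 5 (55.6%) were higher and 0 lower, but only Col1a1 of the 5 was measured on both arrays; the other 4, Col2a1 among them (at least 8.63-fold), were below background with vehicle. Col1a1, the α1 chain of type I collagen, had levels of 1.15 with TGF-β1 and -3.74 with vehicle, with its 2 probes at 4.89 and 5.34. Its partner chain Col1a2 was not higher: its levels were -2.44 with TGF-β1 and -1.93 with vehicle. On the other 3 arrays Col1a1 lay at -0.17 with CCG1423, 2.33 in clone 1 and 0.93 in clone 2, while Col1a2 lay at -3.49, -0.72 and -0.95 in the same order. The list's median difference was 1.55, or 1.16 with the genes below background at their bound and 0.60 over the 5 genes measured on both arrays.

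Other collagens added 6 higher genes of 11 kept, 4 of them on both arrays. Col7a1, the anchoring fibril collagen, was 5.09-fold higher (2.66 with TGF-β1, 0.31 with vehicle), and Col8a1, a short-chain vascular collagen, 4.19-fold (-0.72 and -2.79). In the basement membrane list 4 of 16 genes kept were higher and 0 lower, among them the laminin chain Lamb1 (probes at 1.21, 1.44 and 1.24), Col18a1, the source of endostatin (4.05-fold), and Col4a1, whose difference was 1.10. Its partner Col4a2 differed by 0.98 and Lamc1, a laminin chain found with Lamb1, by -0.20. The enzymes that modify collagen differed less, with 2 of 18 higher: Bmp1, which trims procollagen (probes at 1.42, 1.51 and 0.51), and Loxl3, a lysyl oxidase-like cross-linker (1.11). Lox itself was not well above background on either array.

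Matricellular and elastic fibre proteins went both ways, with 7 of 20 genes kept higher and 6 lower. Thbs1, thrombospondin and an activator of latent TGF-β, had levels of 0.64 with TGF-β1 and -1.81 with vehicle (5.48-fold), and its 2 probes gave 2.45 and 2.07. Ccn4, a Wnt-inducible relative of Ccn2, stood at 5.60 and 3.57 (4.08-fold; probes 2.03 and 2.02). Fn1, fibronectin, stood at 7.35 and 6.15, and its 3 probes gave 1.20, 1.26 and 1.14. Postn, periostin, was higher on all 3 probes, but by sizes that ranged between 1.97 and 5.55. Eln, tropoelastin, was at least 6.36-fold higher. Of the 6 lower genes 4 were below background with TGF-β1, and the other 2 were Fbln5, which assembles elastic fibres (-1.22), and Sparcl1, a relative of osteonectin (-1.23). Among 25 metalloproteinases and TIMPs kept, 8 were higher and 2 lower. Timp4, a metalloproteinase inhibitor, was 3.46-fold higher (probes 1.79 and 1.68), and Adamts4, an aggrecanase, 2.53-fold.

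Contractile genes divided by muscle type. Of 23 smooth muscle genes kept, 6 were higher, 0 lower and 21 above 0, with a median of 0.35. Synm, the intermediate filament protein synemin, stood at 2.22 with TGF-β1 and -0.60 with vehicle (7.09-fold; probes 2.83 and 2.48), and Cald1, caldesmon, at 6.74 and 4.73 (probes 2.01 and 1.98). Synpo, synaptopodin, was 3.51-fold higher by the probe used, but its other probes gave 0.84 and 0.16. The markers most used for this programme differed less: Acta2, smooth muscle actin, had levels of 5.49 with TGF-β1 and 5.20 with vehicle, and Tagln, transgelin, -0.38 and -0.65. The striated muscle list, by contrast, had 2 of 14 kept higher, 1 lower and 9 below 0. Next to Tnnt2 the other higher member was Casq2, cardiac calsequestrin (1.67), which came to under 2-fold with normexp correction. The sister troponins differed by -0.79 for Tnnt1, -0.51 for Tnnt3 and -0.20 for Tnnc1, and Tnni3, Myh7 and Ttn were not well above background on either array. Myh6 was not kept, though 1 of its probes was well above background with TGF-β1 at a dim level (-4.04).

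At focal adhesions 8 of 36 genes kept were higher and 3 lower. Beside Lims2 these were led by Ldb3, a Z-disc PDZ-LIM protein (-0.76 with TGF-β1, -3.82 with vehicle, 8.32-fold), and Fblim1, a filamin-binding adaptor (-0.09 and -2.38, 4.90-fold). Ldb3 was not well above background on the other 3 arrays, all with TGF-β1: -4.53 with CCG1423, -4.40 in clone 1 and -4.75 in clone 2. Zyx, zyxin, which reports tension on stress fibres, stood at 6.49 and 4.69, with its 2 probes at 1.80 and 2.14. Pxn, the adaptor paxillin, was just past 2-fold by the probe used, with probes at 1.02 and 0.86, and Actn1, which cross-links actin, differed by 0.84. Other members lay nearer 0: Vcl differed by -0.12, Tln1 by -0.29, Ilk by 0.03 and Lims1, the paralog of Lims2, by 0.08. Pdlim2, a PDZ-LIM protein that also targets NF-κB for degradation, was 2.20-fold lower. Of 14 integrin subunits 1 (7.14%) was higher and 1 (7.14%) lower, against 4.95% and 3.27% of all genes kept. Itgb5 (1.15), an αv partner that can activate latent TGF-β, was the higher gene. Itga1 (-1.17), a collagen receptor chain whose other probe gave -0.09, was the lower gene.

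In the actin, SRF and MRTF list 2 of 29 genes kept (6.90%) were higher and 2 (6.90%) lower, and 21 lay above 0. The shares of all genes kept were 4.95% and 3.27%. The higher genes of the list were Capg and Tmsb4x, which encodes thymosin β4 and had levels of 7.12 with TGF-β1 and 5.05 with vehicle. Its paralog Tmsb10 differed by 0.42. Gsn, gelsolin, which severs actin filaments as Capg caps them, was lower by both probes (-1.17 and -1.33), and Myh10, a non-muscle myosin, was below background with TGF-β1. The coactivators Mrtfb and Mrtfa differed by 0.90 and 0.57 and their partner Srf by -0.11. The EMT list held 1 higher and 1 lower gene of 13 (7.69% each), both bounds. Cdh13, T-cadherin, was at least 3.37-fold higher and Jup, plakoglobin, at least 10.4-fold lower. Of all 5 arrays, Cdh13 was well above background on the TGF-β1 array alone and Jup on the vehicle array alone. Under 2-fold, Cdh2, N-cadherin, differed by 0.85, Snai2 by 0.39 and Vim, vimentin, by 0.02, and Cdh1, Twist1 and Zeb1 were not well above background on either array.

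Pigment cell genes differed by degrees, with 21 of the melanin and melanosome genes below 0 and 8 above. Of 29 melanin and melanosome genes kept, 0 were higher and 5 (17.2%) lower, against 3.27% of all genes kept. Tyr, tyrosinase, whose promoter is printed above, stood at -0.80 with TGF-β1 and 0.91 with vehicle. Oca2, a melanosomal anion channel, stood at -2.56 and -0.39, and its 2 probes gave -2.17 and -2.12. Tspan10, a pigment cell tetraspanin, was 2.72-fold lower, Slc7a11, the cystine transporter that sets pheomelanin, 3.62-fold (probes -1.86 and -1.47), and Sytl2, a melanosome transport adaptor, just past 2-fold on 2 of 3 probes (-1.01, -0.93 and -1.04). Other genes lay just short of 2-fold: Slc45a2, a melanosomal transporter, differed by -0.98, Rab38 by -0.83, and Gpr143 by -0.71 and -0.95 on its 2 probes. Tyrp1 and Dct, which act after tyrosinase in the same route, differed by 0.08 and -0.11, and Mlana, a melanosome biogenesis protein, by 0.68.

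The regulators of the lineage went both ways, with 2 of 22 kept higher and 3 lower. Mitf gave -0.00, -0.01 and -0.01 on its 3 probes, and Sox10, which drives Mitf, differed by 0.52. Ppargc1a, a coactivator that promotes Mitf expression in melanocytes, stood at -0.22 with TGF-β1 and 1.92 with vehicle, with probes at -2.13 and -2.12. Met, the receptor for hepatocyte growth factor and a known Mitf target, was also lower by both probes (-1.34 and -1.27), as was Cited1, a coregulator of melanocytes (-1.08). Cited1 came to under 2-fold on the authors' scaling. Lef1, a Wnt effector that partners Mitf, was 3.39-fold higher (3.04 and 1.28), and Erbb3, a neuregulin receptor, was higher by 1.18 but under 2-fold with normexp correction. On the other 3 arrays Tyr lay at -1.65 with CCG1423, 1.11 in clone 1 and -0.18 in clone 2, and Tspan10 at -0.31, 3.14 and 3.72 in the same order.

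Of the other signalling pathways, Notch had 4 of 16 genes kept higher and 1 lower, while its median was 0.00. The receptor Notch4 had levels of 1.33 with TGF-β1 and -1.42 with vehicle (6.71-fold), the ligand Jag1 2.19 and -0.55 (6.66-fold), and the transcriptional target Hes1 -0.59 and -3.21 (6.15-fold). The remaining higher gene, Maml2, a coactivator, was higher by both probes (1.12 and 1.09). The lower gene was Hey2, another transcriptional target, which was below background with TGF-β1 (at least 6.08-fold lower). The other receptors were unlike each other, with Notch2 at 0.99, Notch1 at -0.09 and Notch3 at -0.14, and Rbpj, the DNA-binding partner, differed by -0.02. On the other 3 arrays Jag1 lay at 2.39 with CCG1423, 1.32 in clone 1 and 0.37 in clone 2.

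Wnt genes had 5 of 23 kept higher and 1 lower, with a median of 0.51. Their shares were 21.7% and 4.35%, against 4.95% and 3.27% of all genes kept. After Lef1 came the receptor Fzd4 (3.36-fold; 1.49 with TGF-β1, -0.26 with vehicle), the ligand Wnt9a (1.37), the receptor-removing ligase Rnf43 (1.33) and the R-spondin receptor Lgr4 (1.13). The lower gene was Fzd5, whose probes gave -2.50 and -0.34. Axin2, a common readout of the pathway, was not well above background on either array. Of 30 growth factors 5 (16.7%) were higher and 4 (13.3%) lower, with 2 of each measured on both arrays. The higher genes of these were Pdgfb, the B chain of platelet-derived growth factor (0.01 with TGF-β1, -2.72 with vehicle, 6.64-fold), and Pgf, placental growth factor (1.48). The lower ones were Vegfd, a lymphangiogenic factor (-1.22), and Adm, adrenomedullin (-1.03), of which, with Pgf, none kept 2-fold with normexp correction. Of 21 YAP and TEAD targets 5 (23.8%) were higher and 0 lower, with Ccn1 (1.23) after Ccn2, Gadd45b and F3, while Ankrd1 differed by 0.72 and Axl by 0.62.

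Immediate-early genes and feedback regulators of ERK signalling differed in both directions. Of 33 kept, 2 were higher and 5 lower, with 20 below 0, where the median of all genes also lay. The higher ones were Ier5 (1.43) and Junb. Etv5, an ETS factor driven by ERK, had levels of 2.30 with TGF-β1 and 3.68 with vehicle (2.61-fold lower), its relative Etv4 differed by -0.90, and the phosphatases Dusp2 and Dusp6, which switch ERK off, by -1.11 and -0.37. Members on the other side of 0 included Jun at 0.71, Fosl2 at 0.88 with its other probe at -0.11, and the phosphatase Dusp4 at 0.52. Egr1, a serum-induced zinc finger factor, differed by -2.05 at a dim level and was under 2-fold with normexp correction. On the other 3 arrays Etv5 lay at 1.19 with CCG1423, 1.40 in clone 1 and 3.61 in clone 2.

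Interferon response genes had the largest number of higher members of any list: 16 of 37 kept (43.2%), against 4.95% of all genes kept. In this list 0 were lower and 36 lay above 0, with a median of 0.95. Isg15, a ubiquitin-like modifier, had levels of 5.02 with TGF-β1 and 2.97 with vehicle (4.15-fold). Usp18, which removes it, stood at 2.16 and 0.31 (3.61-fold), Rtp4, a receptor transporter, at 3.78 and 1.87 (3.76-fold), and the factor Irf7 at 1.25 and -0.62, with probes at 1.87 and 1.18. The upstream factor Irf9 differed by 1.04. On the other 3 arrays, all with TGF-β1, these genes spread widely: Isg15 lay at 3.62 with CCG1423, 3.05 in clone 1 and 6.37 in clone 2, and Usp18 at 0.92, -1.67 and 3.92. The vehicle level of Usp18 was above that of clone 1, and the vehicle level of Isg15 was close to that of clone 1.

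Genes of antigen presentation differed less. Of 19 MHC class I genes and checkpoint ligands kept, 1 was higher, the β-galactoside lectin Lgals9 (1.57), while H2-K1 differed by 0.28, H2-D1 by -0.06, B2m by 0.15 and Cd274, PD-L1, by -0.19. Cytokines and chemokines had 8 of 21 kept (38.1%) higher and 1 (4.76%) lower, against 4.95% and 3.27% of all genes kept. Il6 was at least 14.2-fold higher, with a level of -0.45 with TGF-β1, and its other probe was also higher by at least 2-fold. Cxcl10, an interferon-induced chemokine, stood at 3.30 and 0.84, and Csf1, the macrophage growth factor, was higher on 3 probes (1.12, 2.51 and 1.16). Il11, a cytokine that TGF-β induces in many stromal and tumour cells, was 2.91-fold higher, but at a dim level and under 2-fold with normexp correction. The cytokine receptor list held 5 higher and 2 lower genes of 29, among them Tnfrsf12a, the TWEAK receptor (1.36).

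Metabolic and stress genes had smaller differences, many of them on the lower side. Counts below 0 depend on the scaling: the median of all genes kept was itself -0.05, and 0.06 on the authors' scaling. In the integrated stress response list 0 of 27 genes kept were higher, 3 were lower and 23 lay below 0, with a median of -0.43. Ddit3, the stress factor CHOP, stood at 1.47 with TGF-β1 and 3.17 with vehicle (3.23-fold lower), Cth, which makes cysteine, was 2.17-fold lower, and Slc7a11 made the third. The driver of the response, Atf4, differed by -0.45 and -0.33 on its 2 probes, and Asns, Psat1 and Phgdh, biosynthetic enzymes under its control, by -0.61, -0.69 and -0.54. None of the 20 aminoacyl-tRNA synthetases differed 2-fold, 19 lay below 0 and their median was -0.28. Genes of serine, glycine and proline synthesis had a median of -0.35 with 15 of 17 below 0. The exception in that list was Prodh, which degrades proline, with levels of 5.61 with TGF-β1 and 3.69 with vehicle (3.77-fold higher). Chaperones of the endoplasmic reticulum, which belong to another stress branch, had 0 of 23 at 2-fold and a median of 0.11, with Hspa5 at 0.09 and Xbp1 at 0.65.

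NRF2 and glutathione genes had 3 of 40 kept (7.5%) higher and 3 (7.5%) lower, with a median of -0.22. The shares of all genes kept were 4.95% and 3.27%. Gstm1, a glutathione transferase, was lower by both probes (-1.24 and -1.23), whereas Gpx2, an epithelial glutathione peroxidase, was 6.35-fold higher at dim levels (-1.18 and -3.85). Nfe2l2, which encodes NRF2, differed by -0.75. Of 26 p53 targets 0 were higher and 2 lower, Gdf15 and Plk2 (-1.06), with 21 below 0; Mdm2 differed by 0.07 and Trp53 by -0.08.

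Genes of growth and division differed less. None of 32 DNA replication genes differed 2-fold, but 29 lay below 0, with a median of -0.29 and a range between -0.42 for Uhrf1 and 0.15 for Tyms. The 30 mitosis genes had a median of -0.02, with Mki67 at -0.15, Top2a at 0.04 and Plk1 at 0.01. Ccnd1, cyclin D1, was 2.21-fold lower (3.76 with TGF-β1, 4.90 with vehicle), and Ccnd2 gave -0.78, -0.75 and -0.65 on its 3 probes. All 27 ribosomal protein genes lay below 0, by 0.08 to 0.28. The authors' scaling, which places the median of all genes at 0.06 rather than -0.05, moved the ribosomal median to -0.08 and the replication median to -0.19, against -0.18 and -0.29 here. Glycolysis and hypoxia genes had 2 of 39 higher, Hif1a (2.24-fold; 4.88 and 3.71) and Ldhb (probes 1.01 and 1.00), and 2 lower, Eno2 (-1.21) and Adm; Car9, a common hypoxia readout, differed by 0.03. Sterol synthesis and fatty acid genes had 0 of 26 and 0 of 31 at 2-fold.

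**Figure D3:**
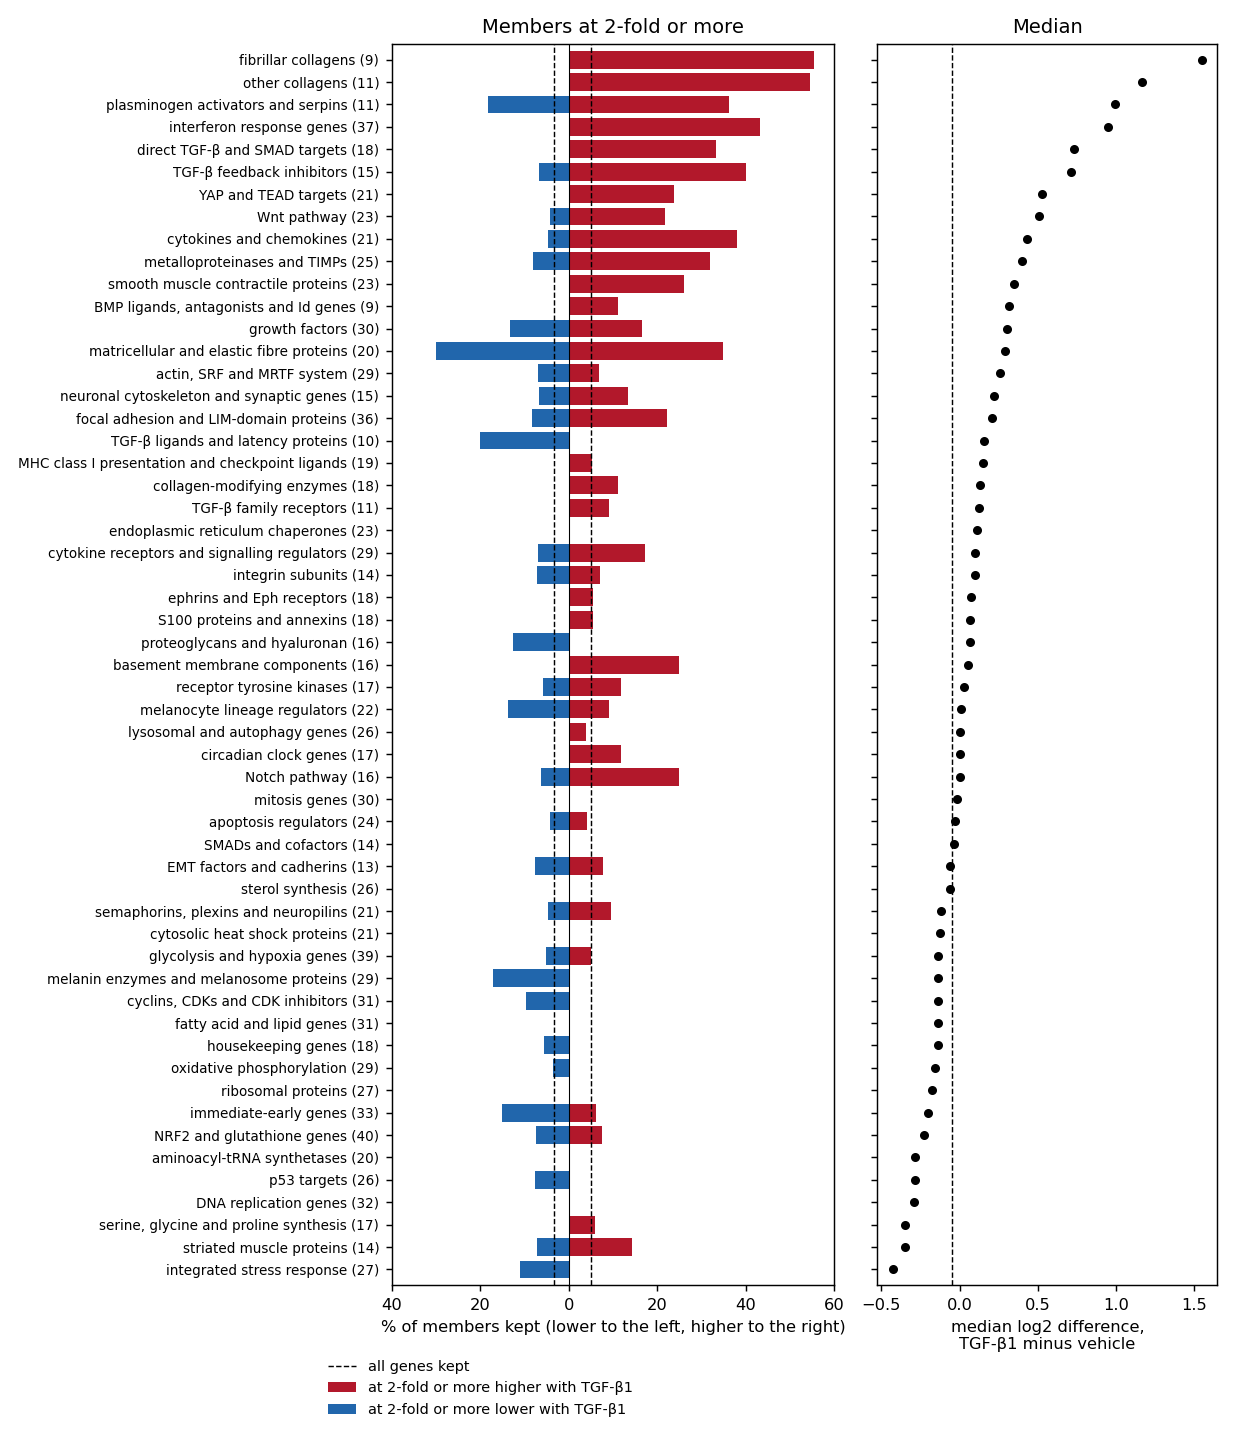
For gene lists with at least 5 members kept, the marker lists left out: left, the share of kept members at 2-fold or more higher with TGF-β1 (to the right) or lower (to the left), with dashed lines at the shares of all genes kept, 4.95% and 3.27%; right, the median log2 difference of the list, with a dashed line at -0.05 for all genes kept. The number of members kept stands beside each name; collagens, serpins and interferon genes have the highest medians of the lists shown, and the integrated stress response the lowest.

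Genes dim on the vehicle array and bright with TGF-β1 had large bounds. Acox2, a peroxisomal bile acid oxidase, had a level of 2.85 with TGF-β1 and was at least 139-fold higher by 1 probe and, by the other, by at least 2.36 on the log2 scale. It was also well above background on the other 3 arrays, at 1.54 with CCG1423, 4.54 in clone 1 and 3.21 in clone 2. Acsbg1, an acyl-CoA synthetase, was at least 97.6-fold higher (2.33), Fbp1, a gluconeogenic phosphatase, at least 80.0-fold (2.05), and Prss46, a serine protease, at least 50.1-fold (1.37). All 3 were above background on every array with TGF-β1. Wdr31, a WD-repeat protein, and Cpa1, a pancreatic carboxypeptidase, behaved otherwise: they were at least 42.2-fold and 36.5-fold higher and were below background on the other 3 arrays with TGF-β1.

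Most bounds rested on few probes. Of the 287 higher ones, 160 (55.7%) had no other array of the 5 above background, and 36 were above background on all of the other 3 arrays. Of the 253 lower ones, 202 (79.8%) had a signal above background with vehicle and on no other array. A gene above background on 1 array alone was not particular to these 2: there were 410 on the TGF-β1 array, 326 on the vehicle array, 247 on the CCG1423 array, and 380 and 275 in the clones. Another named probe existed for 87 of the higher and 74 of the lower bounds, but for most of them it was not well above background on either array. Where a bound could be read by another measured probe, 10 of 14 higher genes were also 2-fold higher by it. Among the lower genes 1 of 8 was also 2-fold lower. The largest lower bounds were Fn3k, a kinase that repairs glycated proteins (at least 31.7-fold), the odorant receptor Olfr619 (28.8-fold), Dsc1, a desmosomal cadherin (26.3-fold), and the membrane metalloproteinase Mmp16 (24.9-fold), and the probes used for all 4 were dim on every array with TGF-β1. The other measured probe of Mmp16 differed by 0.13.

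**Figure D4:**
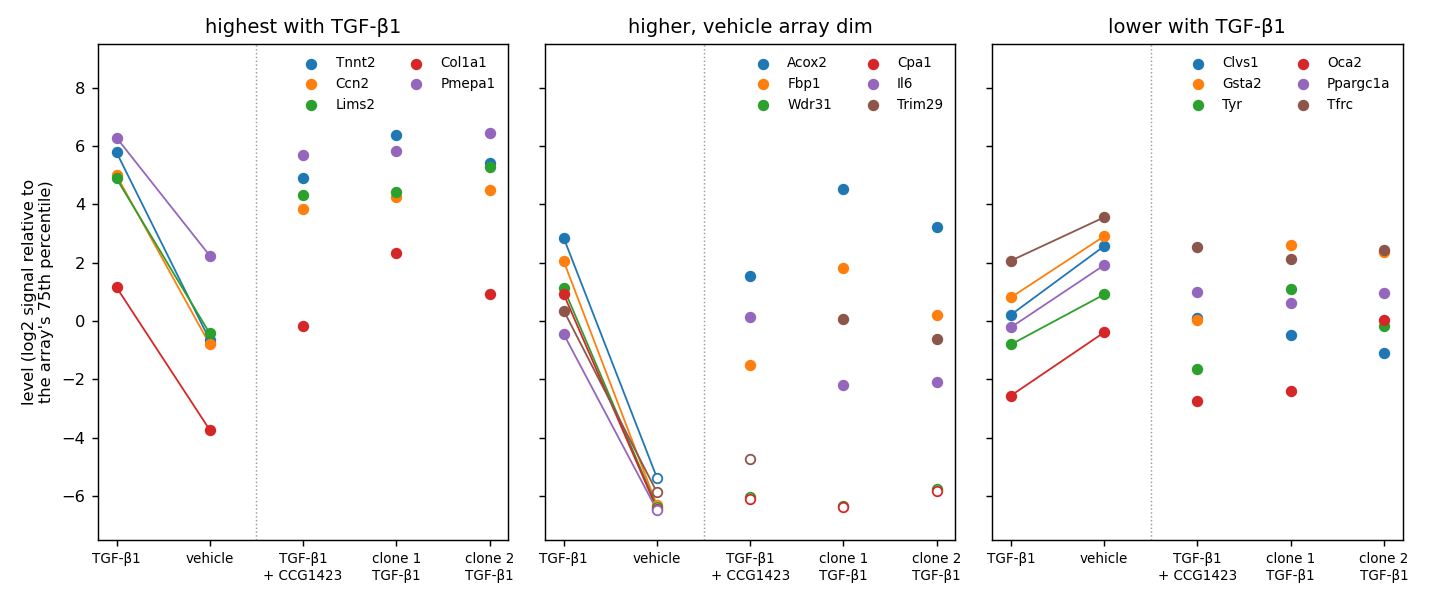
Levels in log2 signal relative to the array's 75th percentile on the TGF-β1 array, the vehicle array and, right of the dotted line, the other 3 arrays; open points are not well above background. The 5 genes on the left lie above their vehicle level on every array with TGF-β1, Wdr31 and Cpa1 in the middle panel are bright on 1 array, and the lower genes on the right spread between the other arrays.

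Agreement between probes checks the probe and not the culture, since the probes of a gene share its RNA. Of 5205 genes with several measured probes, 408 had at least 1 probe at 2-fold or more, and in 133 of these all probes passed in the same direction, 100 higher and 33 lower. For 4 genes, Hs6st3, Slco3a1, Tg and Tns3, probes passed in opposite directions. Of 4885 genes with several probes well above background on both arrays, counting those probes only, 257 had a probe at 2-fold. In 93 of these all such probes passed in the same direction, and in 215 all lay on the same side of 0. Over the 4885 genes the median range between such probes of a gene was 0.12. Edil3, an integrin-binding matrix protein, was among the concordant genes, with probes at 3.31 and 3.56, as was Trpv4, a calcium channel that responds to stretch (4.04 and 1.65); both were chosen after their values were seen.

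Among the 10 genes whose probes spread most widely, a probe near 0 often stood beside one far from it. Tmem120b gave -0.06 and 4.53, Ercc6l2 -0.03 and 3.94, and Zfp827 0.33 and 3.82. On the lower side Rasgrp2, a RAP exchange factor, gave -0.29 and -4.47, Rbm19 -0.31 and -3.62, and Gls2, a glutaminase, 0.64 and -2.67. The probe with the highest mean level stood for the gene, and by it none of these 10 genes but Postn was counted at 2-fold.

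**Figure D5:**
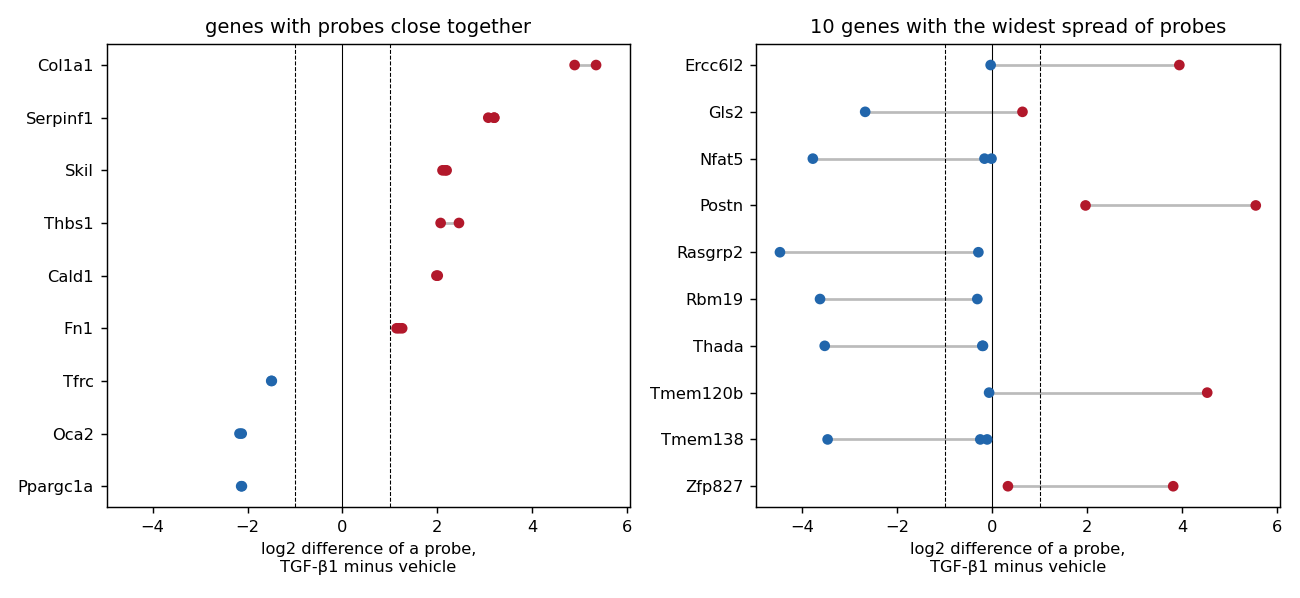
Each point is a probe well above background on both arrays, placed by its log2 difference, TGF-β1 minus vehicle; the left panel holds genes whose probes lie close together and the right panel the 10 genes with the widest spread, with dashed lines at 2-fold. Col1a1, Serpinf1, Skil and Oca2 repeat their difference on each probe, while Tmem120b and Rasgrp2 have a probe near 0 and another beyond 4.

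Markers of other cell types were mostly dim, and their part in the differences was not tested. Of 10 immune markers 5 were kept, and Ptprc, Adgre1, Lyz2, Cd14 and Cd74 were below background on both arrays. Endothelium had 2 of 8 markers kept, Pecam1 and Vwf, and Cdh5 and Kdr were below background; Vwf differed by -1.24. For fibroblasts 3 of 9 were kept, without Pdgfra, Pdgfrb, Dcn, Thy1, Fap and Col3a1, and Postn was the only 1 of these measured on both arrays. Epithelium had 4 of 9, without Epcam, Cdh1, Krt8, Krt18 and Krt19. Of 14 markers of cardiac and skeletal muscle 6 were kept, of which 2 were higher and 1 lower. Beside Tnnt2 the higher one was Nppa, the atrial natriuretic peptide, with levels of -2.13 with TGF-β1 and -3.54 with vehicle (2.65-fold; its other probe at 0.55). The lower one was Des, the muscle intermediate filament protein desmin (2.18-fold, at dim levels), and the myogenic factors Myod1 and Myog were below background on both arrays.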

How the data were processed

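Total RNA of 5 B16F1 cultures was hybridised to 1-colour Agilent arrays, 1 array each. Spot intensity values were deposited by the authors as scanner output of Agilent Feature Extraction 12.0.3.1, per the file headers, in which the processed signal is background-subtracted and detrended. The deposited value table holds the same intensity values multiplied by 1 constant per array (log2 constants of 0.12 for TGF-β1 and -0.01 for vehicle; column medians 29.2 and 26.9, and 27.5, 23.2 and 28.8 for CCG1423 and the clones), so its scale is linear and uncentred.

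Control spots and outlier spots were left out, spots of a probe were averaged, and log2 processed signals had the array's 75th percentile subtracted. RefSeq accessions in the files were matched to RefSeq's GRCm38.p6 gene table, which named 32988 probes of 22907 genes; 23607 probes stayed unnamed. The probe with the highest mean level over the 5 arrays stood for a gene. A gene was kept if its signal was well above background on at least 1 of the 2 arrays and counted at 2-fold or more. Where 1 array was below background, the dim side was raised to the lowest signal well above background on that array, and the fold is written as at least that size. All arrays shared a slide and scan, so no batch could be examined. The number of arrays limits the precision. Alternatives were quantile scaling, median scaling, the authors' table, normexp (offset 50, on median foreground signal) with quantile normalization, other filters, folds and probe rules.

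The text names the 15 highest and 15 lowest bright genes, the 10 largest bounds each way, up to 3 genes each way of a list, fixed TGF-β and marker genes, and the 10 genes with the widest probe spread. Members, lists and rules were chosen with earlier results of these data known. Some genes and lists are not reported here. The counting step was run on simulated data with set changes beyond 2-fold and little noise. Such a run checks the arithmetic of the counts and not the spread between cultures. Tools were Python 3.11.15, numpy 2.4.6, pandas 2.3.3, matplotlib 3.10.9, R 4.3.3 and limma 3.58.1.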

Additional observations from a re-analysis of the deposited data

How the results depend on the processing

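The main setting counted 700 genes higher and 462 lower. Counts were 696 and 461 with quantile scaling, 699 and 463 with median scaling, 796 and 395 on the authors' scaling, 698 and 480 with the mean over probes, and 702 and 462 with outlier spots kept. They were 385 and 189 with normexp and quantile normalization, 413 and 209 for genes above background on both arrays, 1250 and 982 with no filter on dim probes, 1450 and 1120 over all probes, and 649 and 438 where all measured probes of a gene had to pass. At other folds they were 1285 and 977 at 1.5-fold, 371 and 231 at 3-fold, and 252 and 178 at 4-fold. The higher side made up 60.2% of calls, 66.8% on the authors' scaling, 67.1% with normexp, 66.4% on both arrays and 56.0% with no filter. The authors' scaling moved the median of all genes to 0.06 and every difference by the same constant.

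Of the named genes at 2-fold, 126 of 172 stayed there with normexp, 166 of 174 on the authors' scaling and 168 of 174 with the mean over probes, and 0 changed direction under these. Of the 62 list medians, 18 changed sign with no filter on dim probes, 5 on the authors' scaling, 4 with normexp, 3 on both arrays and 3 with the mean over probes. Among medians over 0.2 in size, 7 changed sign with no filter, the Wnt (0.51 to -0.16), cytokine (0.43 to -0.15) and growth factor lists (0.30 to -0.06) among them, and 1 on both arrays. Medians moved by up to 1.08 with normexp (fibrillar collagens 0.47, other collagens 0.41) and by up to 2.30 on both arrays, there for the fibroblast markers. Named genes under 2-fold with normexp include Cth, Gdf15, Wnt9a, Plk2, Des and Ggt1; the cause was not tested. Dim genes are limited by signal over background. Leaving out an array was not run, since each group has 1. No paired analysis was possible because TGF-β1 and vehicle share only 1 replicate number.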

Other observations

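Guidance and clock genes, described here as values only, differed in a few members. Of 18 genes of ephrins, Eph receptors and related guidance receptors kept, 1 was at 2-fold: Unc5b, a netrin receptor, with levels of 3.60 with TGF-β1 and 1.28 with vehicle, and probes at 2.32 and 2.31. Of 21 semaphorins, plexins and neuropilins, 2 were higher and 1 lower, and of 17 circadian clock genes 2 were higher. Of 26 lysosomal and autophagy genes 1 was higher, Ctsd, the protease cathepsin D, with levels of 7.61 with TGF-β1 and 6.50 with vehicle (2.17-fold).

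The share at 2-fold was also taken by the kind of transcript a probe was designed for. Among probes well above background on both arrays, 4.47% of those for mRNA differed 2-fold, as did 5.39% of those for non-coding RNA, 3.61% of those with Ensembl identifiers and 4.42% of those for genomic intervals.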
